A study of Homo sapiens with 4 samples.

Results

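The genes of serine synthesis, serine to glycine conversion, mitochondrial and cytosolic folate metabolism and glycine cleavage were followed in IMR-32 cells with and without NeuroD1 knockdown. The set holds 10 enzyme genes (PHGDH, PSAT1, PSPH, SHMT1, SHMT2, MTHFD1, MTHFD1L, MTHFD2, ALDH1L2 and GLDC) of 60612 genes in the count table, and each was found by its symbol and tested after the filter on low counts. The set was proposed with the shControl against shNeuroD1 difference of these same libraries known, so the differences of its members are given as a description and carry no p-value.

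RNA sequencing of polyadenylated RNA was analysed in 4 IMR-32 libraries. IMR-32 is an established line from a human neuroblastoma with many copies of MYCN. 2 libraries came from cells stably transduced with a control hairpin (shControl) and 2 from cells with a hairpin against NeuroD1 (shNeuroD1), a neurogenic transcription factor. In both groups hairpin expression was switched on with doxycycline at 1 µg/mL for 48 h, so the titles and treatment label give the controls a hairpin and the drug as well, while their genotype label reads WT and the series text calls them parental. Column headings in the study's supplement read as replicates of a single NeuroD1 hairpin, but the endings of the library titles, taken here as replicate numbers, also match the names of different hairpins, so whether both knockdown libraries carry the same hairpin is not settled. Only 1 cell line was sequenced, and separate cultures are not named in the labels, so the p-values given below for other genes measure only the spread between these libraries, which may be technical.

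The libraries held 14665210 to 16482463 counts. NEUROD1 itself had 6174 and 6582 counts in shControl against 969 and 886 in shNeuroD1, which is -2.77 as a log2 fold change (SE 0.050). Of 10 markers of adrenergic neuroblastoma, 8 reached 10 CPM (counts scaled to library size) in every library, while TH and DBH, the catecholamine enzymes, stayed at or under 5.78 CPM. No blood or epithelial marker of 8 reached 10 CPM (summed level 0.204 to 2.10 CPM) and 4 of them had no count in any library. Of 11 mesenchymal and Schwann cell markers 4 reached 10 CPM, with a summed level of 235.6 to 242.1 CPM in shControl and 185 to 186 CPM in shNeuroD1, and PRRX1 had no count. Mitochondrially encoded genes took 4.37% to 4.59% of counts in shControl and 5.39% to 5.51% in shNeuroD1. These differences run along the group labels, and their part in the results below was not tested.

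Cells make serine from a glycolytic intermediate by the successive action of PHGDH, PSAT1 and PSPH. Serine hydroxymethyltransferases then move a carbon of serine onto tetrahydrofolate and leave glycine, SHMT1 chiefly in the cytosol and SHMT2 in mitochondria. The folate-bound carbon is oxidised and released as formate in mitochondria (MTHFD2, MTHFD1L, with ALDH1L2 as an alternative that yields carbon dioxide), taken up again in the cytosol by MTHFD1, and spent on purines, thymidylate and methionine. GLDC opens the glycine cleavage system, which breaks glycine down in mitochondria. In neuroblastoma and other tumours the serine synthesis genes are known targets of ATF4, and MYCN amplified lines are known for high expression of this pathway.

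Promoter windows were examined first to show the sequence at the starts of these genes. RefSeq windows of 250 bases before and 50 bases after an annotated start (build GRCh38.p14) were available for 7 of the 10 genes, as 10 windows in all. PSPH, SHMT2 and ALDH1L2 were without one. Below, all letters run 5′ to 3′ along the strand of the gene, and capitals mark matches, on either strand, to any of 6 motifs: TGATGCAA (a C/EBP and ATF core), CACGTG (the E-box of the MYC family), CAGATG and CAGCTG (E-boxes of neurogenic bHLH factors), TGACNNNGC (the antioxidant response core) and ATTGG (the inverted CCAAT box, read as CCAAT on the other strand). PHGDH and PSAT1 are shown as the first enzymes of serine synthesis, MTHFD2 as the most counted member, GLDC as the member that was not lower, and MTHFD1L as the only one of the 7 genes with the C/EBP and ATF core.

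PHGDH, chr1:119711684-119711983, plus strand: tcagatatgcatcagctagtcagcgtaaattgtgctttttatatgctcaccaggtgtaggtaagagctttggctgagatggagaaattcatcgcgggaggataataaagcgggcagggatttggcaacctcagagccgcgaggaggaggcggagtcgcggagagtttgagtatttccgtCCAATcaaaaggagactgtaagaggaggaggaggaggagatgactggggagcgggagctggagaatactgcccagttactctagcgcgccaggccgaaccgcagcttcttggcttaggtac

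PSAT1, chr9:78296875-78297174, plus strand: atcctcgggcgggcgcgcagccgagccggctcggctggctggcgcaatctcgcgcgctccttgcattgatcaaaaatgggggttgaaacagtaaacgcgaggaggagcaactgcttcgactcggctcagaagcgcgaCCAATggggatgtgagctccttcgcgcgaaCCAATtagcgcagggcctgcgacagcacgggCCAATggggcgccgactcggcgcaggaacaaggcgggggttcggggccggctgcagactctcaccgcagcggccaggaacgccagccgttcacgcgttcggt

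MTHFD2, chr2:74198365-74198664, plus strand: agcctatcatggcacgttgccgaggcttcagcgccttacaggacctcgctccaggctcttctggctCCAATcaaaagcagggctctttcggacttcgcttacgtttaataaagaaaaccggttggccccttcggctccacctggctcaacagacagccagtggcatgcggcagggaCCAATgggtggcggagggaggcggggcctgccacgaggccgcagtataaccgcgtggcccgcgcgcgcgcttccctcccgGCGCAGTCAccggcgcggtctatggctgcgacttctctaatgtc

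GLDC, chr9:6645680-6645979, minus strand: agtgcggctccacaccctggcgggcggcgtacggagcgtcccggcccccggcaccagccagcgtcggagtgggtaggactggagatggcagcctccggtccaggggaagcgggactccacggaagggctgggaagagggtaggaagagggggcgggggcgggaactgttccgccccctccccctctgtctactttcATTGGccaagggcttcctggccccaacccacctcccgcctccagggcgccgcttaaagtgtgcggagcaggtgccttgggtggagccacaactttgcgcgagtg

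MTHFD1L, chr6:150866083-150866382, plus strand: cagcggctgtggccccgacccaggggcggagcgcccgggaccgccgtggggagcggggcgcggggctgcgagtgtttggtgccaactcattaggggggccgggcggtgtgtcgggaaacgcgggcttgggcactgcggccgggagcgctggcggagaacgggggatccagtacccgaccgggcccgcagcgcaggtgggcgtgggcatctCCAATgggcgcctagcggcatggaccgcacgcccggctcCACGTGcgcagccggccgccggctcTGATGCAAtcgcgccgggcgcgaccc

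The CCAAT box was the only one of the 6 motifs found in every gene searched, though not in every window. The MTHFD1L window at chr6:151006758-151007057 had no match. It was found in a window of all 7 genes searched, MTHFD1 and SHMT1 included, against 34.6% of 35116 windows of all genes and 34.7% of 22198 windows of protein coding genes. PSAT1 held 3 copies, starting 113, 83 and 52 bases before the annotated start (positions -113, -83 and -52). PHGDH held 1 copy at -71, MTHFD2 held 2 at -184 and -74, and GLDC, the gene that was not lower, held 1 at -54. A gene with several windows, such as MTHFD1L with 4, had more chances of a match, and the motifs were chosen after the windows had been searched.

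The other motifs were sparse in these genes. TGATGCAA was found only in MTHFD1L, 25 bases past the annotated start, near the end of the window shown, against 0.866% of all windows. CACGTG was found in MTHFD1 at -15 and in MTHFD1L at -1, against 7.26% of all windows. TGACNNNGC was found in MTHFD2 at position 7, on the minus strand, against 13.3% of all windows. Of the neurogenic E-boxes, CAGCTG was found in SHMT1 (17.9% of all windows) and CAGATG in none of the 7 genes (14.7%). A match is only a run of letters, and an absent match says nothing of binding elsewhere. The assembled MTHFD1L transcripts mostly started upstream of the windows, within the first exon at the GENCODE gene start, so the printed window is not their promoter.

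Summed, the 10 genes had 0.241% and 0.236% of all counts in shControl and 0.104% in each shNeuroD1 library. After scaling by the trimmed mean of M-values (TMM), which corrects library sizes for composition, their summed level was 2519 and 2454 CPM in shControl and 1006 and 1004 CPM in shNeuroD1. SHMT2, MTHFD2 and PHGDH made up most of this sum in the control. Mean CPM was higher in shNeuroD1 for GLDC and lower for the other 9, a description of genes chosen from this contrast.

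**Figure D1:**
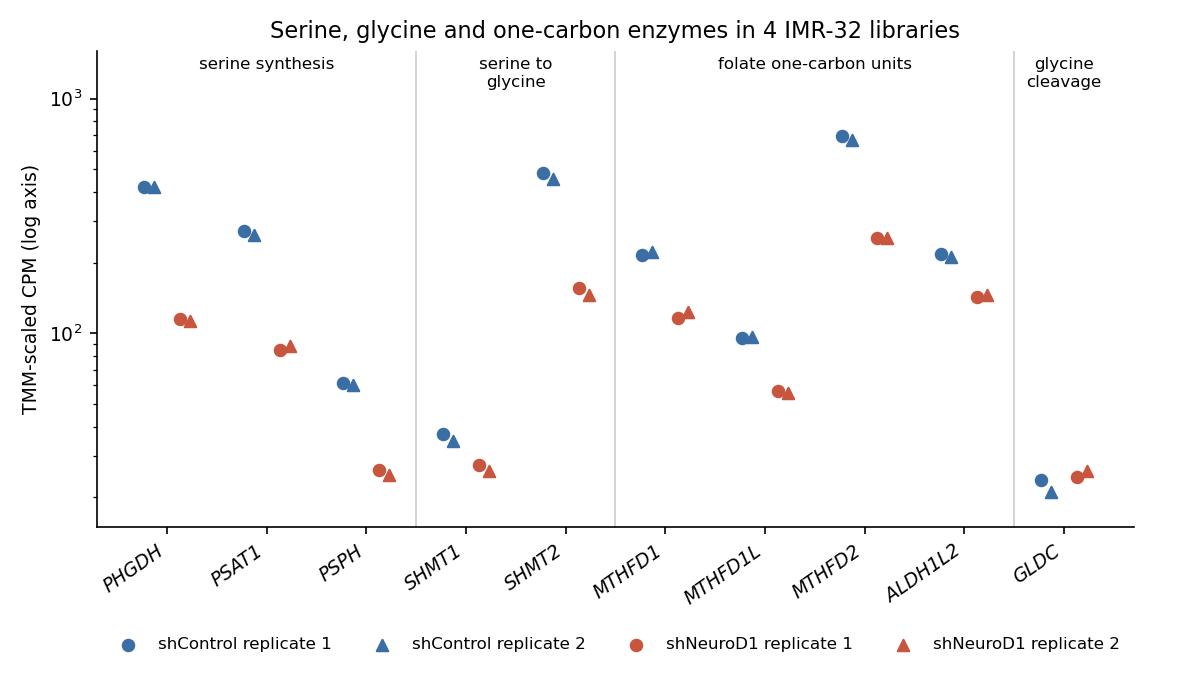
TMM-scaled CPM (log axis) of the 10 enzyme genes in each of the 4 libraries, with shControl in blue and shNeuroD1 in red, and circles and triangles for replicates 1 and 2. The replicates lie close together in every gene. The mean of the knockdown lies under that of the control in 9 genes, from PHGDH (420.2 against 114.2 CPM) to SHMT1 (36.1 against 26.7 CPM), and over it in GLDC.

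Across all 17537 genes tested with edgeR's quasi-likelihood test, 902 (5.14%) were lower in shNeuroD1 by both thresholds, an adjusted p under 0.05 together with a log2 change of more than 1 in size, and 1541 (8.79%) were higher. Of the 10 members 5 were lower by both thresholds (PHGDH, SHMT2, PSAT1, MTHFD2 and PSPH) and 0 were higher. At the adjusted p alone 9 of 10 were lower, against 28.2% of all genes, and again 0 were higher (26.8% of all genes). The member counts were the same at an unadjusted p under 0.05, where 5298 of the 17537 genes were lower and 5123 higher. They were also the same at the adjusted p of DESeq2, where 3575 of these genes were lower and 2750 higher. The set was chosen by the log2 fold changes and counts of this same contrast, so nothing is read from these shares. The median log2 fold change of the members was -1.06, and that of all genes tested was 0.0084. The member just inside the fold threshold was PSPH (-1.25) and the one just outside it was MTHFD1 (-0.87).

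In counts the serine synthesis genes were all lower by both thresholds, as were SHMT2 and MTHFD2 among the other members. PHGDH, the dehydrogenase that opens the pathway (plus strand of chromosome 1, 119648411 to 119744226 in GRCh38), had 6200 and 6666 counts in shControl against 1753 and 1722 in shNeuroD1. Its scaled level was 420.2 ± 0.604 CPM (SD, n = 2) in the control and 114.2 ± 1.52 CPM (SD, n = 2) in the knockdown, which is 27.2% of control and a log2 fold change of -1.88 (SE 0.045). PHGDH held rank 234 of 17537 genes ordered from the most negative log2 fold change in counts, the first rank among the members.

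PSAT1, the aminotransferase of the next step (plus strand of chromosome 9, 78297143 to 78330093), had 4038 and 4164 counts in shControl against 1289 and 1345 in shNeuroD1. The level was 268.1 ± 8.30 CPM against 86.5 ± 2.54 CPM (SD, n = 2 each), or 32.3% of control, with a log2 fold change of -1.63 (SE 0.048). PSPH, the phosphatase that releases serine (minus strand of chromosome 7, 56011051 to 56051604), had 907 and 956 counts in shControl against 400 and 381 in shNeuroD1. Its level was 60.9 ± 0.942 CPM against 25.7 ± 0.900 CPM, or 42.2% of control, with a log2 fold change of -1.25 (SE 0.072). In counts the remaining share of the control level was thus smallest at the first enzyme of the pathway and largest at the last. In FPKM, a measure scaled for transcript length and described below, this order was not seen. With limma on log2(FPKM + 1) the log2 fold changes were -1.10 for PHGDH, -1.52 for PSAT1 and -1.43 for PSPH. SHMT2 had -1.94 in that fit, the most negative value of the members.

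Ratios inside each library express the order in counts without scaling between libraries. They come from the same counts, so they add no separate evidence for it. PHGDH had 6.84 and 6.97 counts for each count of PSPH in shControl and 4.38 and 4.52 in shNeuroD1. Against PSAT1 the PHGDH ratio was 1.53 and 1.601 in shControl against 1.36 and 1.28 in shNeuroD1. Neither ratio overlapped between the groups.

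Of the serine hydroxymethyltransferases, the mitochondrial gene differed far more than the cytosolic one. SHMT2 (plus strand of chromosome 12, 57229327 to 57234935) had 7106 and 7247 counts in shControl against 2372 and 2224 in shNeuroD1. This was 469.2 ± 18.2 CPM against 151.0 ± 6.98 CPM (SD, n = 2 each), 32.2% of control, with a log2 fold change of -1.64 (SE 0.046). SHMT1 (minus strand of chromosome 17, 18327860 to 18363563) had 550 and 555 counts in shControl against 418 and 395 in shNeuroD1. This was 36.1 ± 1.67 CPM against 26.7 ± 1.09 CPM, 73.9% of control, with a log2 fold change of -0.43 (SE 0.081).

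The count ratio of SHMT2 to SHMT1 was 12.9 and 13.1 in the control against 5.67 and 5.63 in the knockdown. The mitochondrial transcript was therefore the more counted one in all 4 libraries, by a smaller margin in the knockdown. The value of SHMT1 is uncertain. SMCR8, on the opposite strand, overlaps it and had 868 and 1000 counts in shControl against 1093 and 1132 in shNeuroD1, more than SHMT1 itself. The use of strand in counting was not stated, so reads of the pair may not have been told apart.

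**Figure D2:**
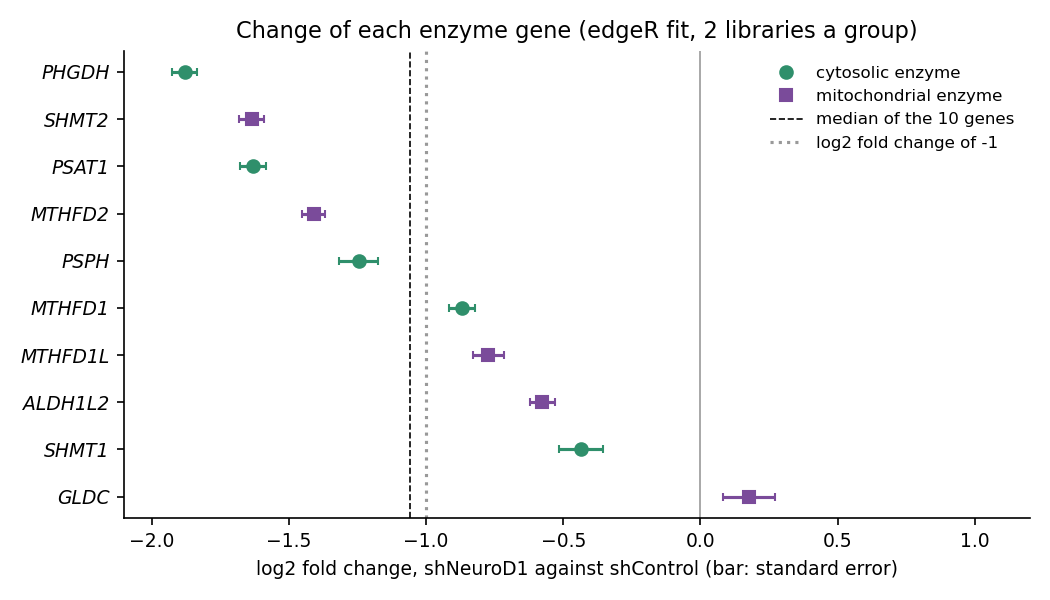
Log2 fold change of each enzyme gene in shNeuroD1 against shControl from the edgeR fit with 2 libraries a group (bar, standard error), with cytosolic enzymes as green circles and mitochondrial enzymes as purple squares. Values run from -1.88 for PHGDH to 0.18 for GLDC, both kinds of enzyme are spread over the range, and the dashed median is -1.06.

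In counts the folate enzymes formed a graded series. MTHFD2, the mitochondrial dehydrogenase and cyclohydrolase (plus strand of chromosome 2, 74198562 to 74217565), was the most counted member, with 10184 and 10628 counts in shControl against 3893 and 3896 in shNeuroD1. Its level was 680.1 ± 15.3 CPM against 255.9 ± 0.034 CPM (SD, n = 2 each), 37.6% of control, with a log2 fold change of -1.41 (SE 0.041). MTHFD1, the cytosolic multifunctional enzyme of this route (plus strand of chromosome 14, 64388031 to 64463457), had 3170 and 3528 counts in shControl against 1770 and 1875 in shNeuroD1. This was 218.6 ± 5.02 CPM against 119.7 ± 4.80 CPM, 54.8% of control, with a log2 fold change of -0.87 (SE 0.047).

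MTHFD1L, the mitochondrial synthetase that releases formate (plus strand of chromosome 6, 150865549 to 151101887), had 1405 and 1528 counts in shControl against 861 and 845 in shNeuroD1. The level was 95.8 ± 0.638 CPM against 56.05 ± 0.781 CPM, 58.5% of control, with a log2 fold change of -0.77 (SE 0.057). ALDH1L2, the mitochondrial dehydrogenase that oxidises the folate-bound carbon to carbon dioxide (minus strand of chromosome 12, 105019784 to 105084577), had 3214 and 3355 counts in shControl against 2169 and 2211 in shNeuroD1. This was 214.7 ± 4.79 CPM against 143.9 ± 1.85 CPM, 67.0% of control, with a log2 fold change of -0.58 (SE 0.046). All 4 folate enzymes had a lower mean CPM in the knockdown than in the control, and only MTHFD2 passed the fold threshold.

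The folate enzymes, of which MTHFD1 is cytosolic, did not all keep their proportions in counts. MTHFD2 had 7.25 and 6.96 counts for each count of MTHFD1L in shControl and 4.52 and 4.61 in shNeuroD1. MTHFD2 to MTHFD1 was 3.21 and 3.01 in shControl against 2.20 and 2.08 in shNeuroD1. MTHFD1L to MTHFD1 was 0.443 and 0.433 in shControl against 0.486 and 0.451 in shNeuroD1, a pair that stayed nearly level in mean (1.07 times the control ratio). ALDH1L2 to MTHFD1 was 1.01 and 0.951 in shControl against 1.23 and 1.18 in shNeuroD1. So in counts MTHFD2 lost ground to both other folate enzymes compared here, and ALDH1L2 gained on MTHFD1. The gain of ALDH1L2 was not seen in FPKM. With limma on log2(FPKM + 1) the log2 fold changes were -1.21 for MTHFD2, -0.67 for ALDH1L2, -0.62 for MTHFD1 and -0.42 for MTHFD1L.

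Genes on the opposite strand overlap some of these loci too. C12orf45 overlaps ALDH1L2 and had 53.7% of its counts over the 4 libraries, and ZBTB25 overlaps MTHFD1 and had 19.4% of its counts. C12orf45 had 1319 and 1478 counts in shControl against 1500 and 1585 in shNeuroD1. ZBTB25 had 422 and 479 against 548 and 557. Reads of these pairs may not have been told apart either. The partners of MTHFD2 and SHMT2 had at most 1.66% of the member's counts. For PHGDH, PSAT1, PSPH, MTHFD1L and GLDC, no counted gene of GENCODE 29 had exons overlapping theirs. Genes lying within introns were not searched for. Processed copies took few reads. Of 15 pseudogenes named after the members, 12 had no count and the most counted, GLDCP1, had 24 counts over the 4 libraries.

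GLDC, the decarboxylase of glycine cleavage (minus strand of chromosome 9, 6532464 to 6645783), was the exception. It had 349 and 334 counts in shControl against 373 and 395 in shNeuroD1, and 22.4 ± 1.87 CPM against 25.2 ± 1.01 CPM (SD, n = 2 each). The log2 fold change was 0.18 (SE 0.094), or 112.9% of control, and GLDC did not pass the adjusted threshold. SHMT2, which can form glycine in the same compartment, had 20.4 and 21.7 counts for each count of GLDC in shControl and 6.36 and 5.63 in shNeuroD1. PHGDH to GLDC was 17.8 and 20.0 in shControl against 4.70 and 4.36 in shNeuroD1. Both ratios were thus lower in each knockdown library than in either control library.

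**Figure D3:**
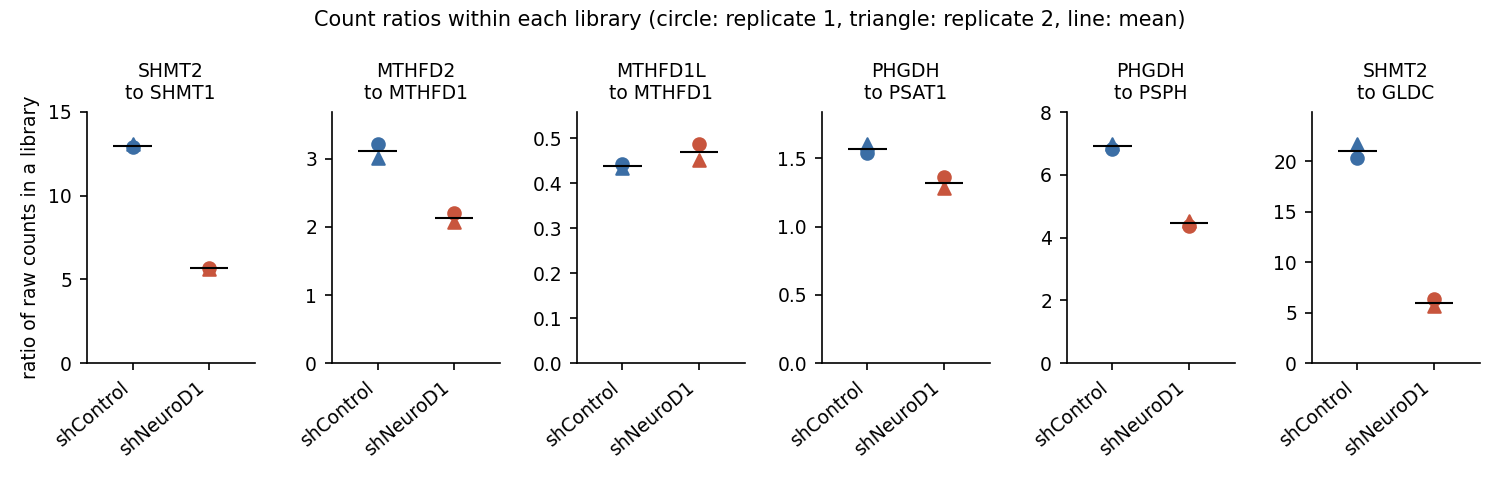
Ratios of raw counts of 6 pairs of enzyme genes within each library, in shControl (blue) and shNeuroD1 (red), with circles and triangles for replicates 1 and 2 and a line at the mean. SHMT2 to SHMT1 goes from 12.9 and 13.1 to 5.67 and 5.63, while MTHFD1L to MTHFD1 goes from 0.443 and 0.433 to 0.486 and 0.451.

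Counts grow with transcript length, so levels of different genes were compared as FPKM (fragments mapped, scaled for transcript length and depth), summed over the transcript starts that the authors' assembly lists for a gene. SHMT2 had 115.3 and 175.5 FPKM in the shControl libraries, a wide spread. MTHFD2 had 128.6 and 128.4 FPKM, PSAT1 had 90.3 and 81.8 FPKM and PHGDH had 78.8 and 90.2 FPKM. In FPKM, SHMT2 and MTHFD2 did not differ in level beyond the spread between libraries, nor did PSAT1 and PHGDH.

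A second tier followed in the control. MTHFD1 had 36.01 and 39.3 FPKM, PSPH had 29.97 and 20.2 FPKM, MTHFD1L had 15.6 and 18.8 FPKM and ALDH1L2 had 8.38 and 11.1 FPKM. GLDC (5.71 and 4.67 FPKM) and SHMT1 (4.95 and 2.82 FPKM) were lowest and overlapped each other. CPM divided by the exonic length of GENCODE 29 put the same 4 genes on top, in the order MTHFD2 (139.7 CPM per kilobase), PSAT1 (122.5), SHMT2 (97.0) and PHGDH (45.6). Unlike FPKM, this measure set PSAT1 apart from PHGDH and MTHFD2 apart from SHMT2. Its length takes in every annotated exon, used in these cells or not, with 9217 bases for PHGDH and 2188 for PSAT1. The part of this length in the order was not tested. The same 2 genes, SHMT1 (4.96) and GLDC (2.501), were at the bottom.

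In shNeuroD1 the same FPKM sums were 56.9 and 52.9 for MTHFD2, 38.9 and 33.9 for SHMT2, 36.01 and 41.9 for PHGDH and 29.1 and 29.5 for PSAT1. MTHFD2 then stood above the other 3 in both libraries. GLDC had 9.09 and 9.81 FPKM, above both of its control values, and SHMT1 had 4.997 and 3.32 FPKM, values that overlapped those of the control. The lower SHMT1 level seen in counts was therefore not seen in FPKM.

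The starts behind these sums differed between libraries for some genes. The most used PHGDH start, 63473 bases past the gene start in GENCODE, had 49.8 and 78.1 FPKM in shControl and 35.6 and 41.8 FPKM in shNeuroD1. A PHGDH start 7743 bases further downstream had 28.4 and 12.0 FPKM in shControl and 0.0042 and 0.0014 FPKM in shNeuroD1, that is 36.1% and 13.3% of the gene's start FPKM against 0.012% and 0.0034%. This downstream start differed more than the gene as a whole, although its share varied widely between the control libraries.

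GLDC showed the reverse at its most used start, with 3.49 and 2.64 FPKM in shControl and 6.98 and 6.43 FPKM in shNeuroD1. A GLDC start 103913 bases downstream had 1.91 and 1.74 FPKM in shControl and 1.66 and 1.94 FPKM in shNeuroD1, values that overlapped. The whole difference of GLDC in FPKM thus lay outside its far downstream start. For PSPH, replicate 1 of shControl had 29.3 of its 29.97 FPKM at a start 17433 bases downstream of the one used in the other 3 libraries, and for SHMT2 a start listed in 3 libraries was absent from the list of shNeuroD1 replicate 2, so the assembly of starts was not stable between replicates.

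**Figure D4:**
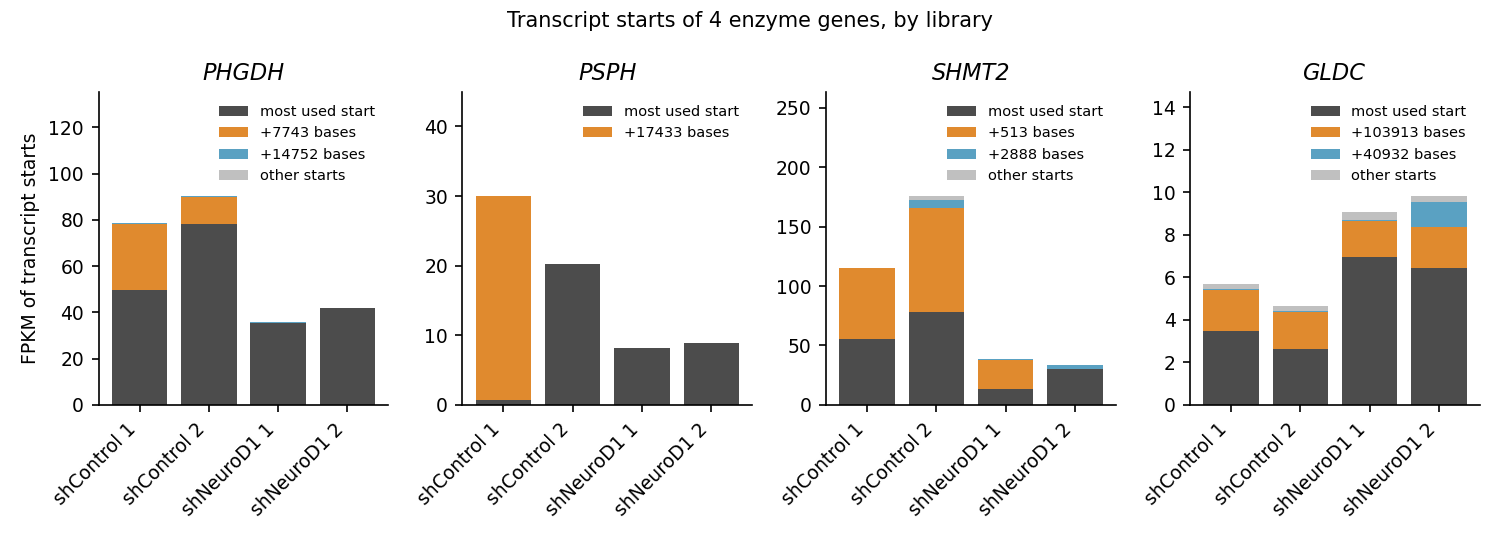
FPKM of transcript starts in each library for PHGDH, PSPH, SHMT2 and GLDC, as bars stacked by start, with each start named by its distance in bases from the most used start of that gene. The PHGDH start at +7743 bases is seen in both control libraries (28.4 and 12.0 FPKM) and hardly in the knockdown, and the most used GLDC start is higher in both knockdown libraries (6.98 and 6.43 against 3.49 and 2.64 FPKM).

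The genes whose pattern over the 4 libraries was most like that of PHGDH were CDC6, CERKL, COL16A1, BLM and SATB1, by Euclidean distance of centred log2 CPM over the 10559 genes whose mean reached 10 CPM. Their distances were 0.069 to 0.108. CDC6, a licensing factor of DNA replication, had 1803 and 1939 counts in shControl against 519 and 530 in shNeuroD1. CERKL lies across NEUROD1 on the same strand, so its reads and those of the targeted gene may be mixed. Among the members SHMT2 (rank 32) and PSAT1 (rank 35) were nearest to PHGDH, followed by MTHFD2 (rank 119) and PSPH (rank 221), and GLDC was farthest (rank 7759).

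The wider pathway was read from 69 further genes in 6 lists, of which 59 were tested. 3 were lower and 4 higher by both thresholds, 23 were lower and 10 higher at the adjusted p alone, and 26 did not pass it. Over all genes tested the shares were 5.14% lower and 8.79% higher by both thresholds and 28.2% lower and 26.8% higher at the adjusted p alone. Their median log2 fold change was -0.15. The median of -1.06 in the 10 enzyme genes is not a fair comparison, since that set was proposed from this contrast.

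Among 14 tested genes of 16 in the rest of the folate cycle and its carriers, 2 were lower by both thresholds and 0 were higher. 5 fell and 0 rose at the adjusted p alone, and at an unadjusted p under 0.05 6 were lower and 1 higher. At the adjusted p of DESeq2 only 3 were lower and 0 higher. TYMS, which spends the folate-bound carbon on thymidylate, had 2327 and 2258 counts against 971 and 867 (log2 fold change -1.31, SE 0.060, adjusted p = 1.53e-18). MTHFD2 had -1.41 on the same scale. MTHFD2L, the paralogue of MTHFD2, had 161 and 215 counts in shControl against 206 and 204 in shNeuroD1 and did not pass the threshold (adjusted p = 0.392).

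The other glycine cleavage subunits were AMT, GCSH and DLD. DLD, which also serves other dehydrogenase complexes, rose slightly (1817 and 1837 counts against 2141 and 2135, log2 fold change 0.23, SE 0.049, adjusted p = 1.55e-04). AMT had only 8 and 10 counts in shControl against 12 and 14 in shNeuroD1, GCSH had 53 and 53 against 55 and 30, and neither passed the threshold. None of the 3 was lower by edgeR at an unadjusted p under 0.05 or by DESeq2.

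Of the SFXN genes, listed as inner membrane carriers, SFXN1, the main one for serine, did not pass the threshold (1909 and 2060 counts against 1851 and 1864, adjusted p = 0.129). SFXN5 fell (log2 fold change -0.67, adjusted p = 1.33e-04) and SFXN3 rose (0.53, adjusted p = 4.21e-06), and 3 of the 5 SFXN genes did not pass. The SFXN5 call was lost without shControl replicate 1 (adjusted p = 0.133) and without shControl replicate 2 (adjusted p = 0.133), and the SFXN3 call was lost with limma on log2(FPKM + 1) (adjusted p = 0.077).

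In serine and glycine use and breakdown, 11 of 17 genes were tested. 3 were higher by both thresholds, and all 3 were scarce. AGXT2, an aminotransferase that acts on glyoxylate, had 5 and 1 counts in shControl against 58 and 28 in shNeuroD1 (log2 fold change 3.79, SE 0.54, adjusted p = 4.24e-07). PIPOX had 9 and 3 counts against 15 and 15 (1.31, adjusted p = 0.040) and SARDH, which turns sarcosine into glycine, had 7 and 12 against 22 and 21 (1.18, adjusted p = 0.023). DESeq2 called only 1 gene of this list higher, and the PIPOX and SARDH calls were lost there. At the adjusted p alone 2 of the 11 fell and 4 rose. SPTLC1, a subunit of the enzyme that joins serine to a fatty acid, was the most negative of them (log2 fold change -0.62, adjusted p = 4.05e-10), and was named after its value was seen.

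Purine synthesis takes up both glycine and folate-bound carbon. Of its 12 genes 8 fell and 1 rose at the adjusted p (28.2% and 26.8% of all genes), and none passed the fold threshold with edgeR or DESeq2 (9 lower and 1 higher at an unadjusted p under 0.05). PAICS had 8290 and 8622 counts in shControl against 5530 and 5370 in shNeuroD1 (log2 fold change -0.63, adjusted p = 1.64e-14). IMPDH2 fell by 0.45 on the log2 scale (adjusted p = 2.65e-10), while its paralogue IMPDH1 rose by 0.67 (adjusted p = 3.18e-10).

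In the methionine cycle and transsulfuration 7 of 14 tested genes fell and 3 rose at the adjusted p. CTH, the lyase that makes cysteine from the sulfur of homocysteine and the carbons of serine, had 507 and 507 counts in shControl against 103 and 144 in shNeuroD1 (log2 fold change -2.03, SE 0.12, adjusted p = 8.56e-16). PHGDH had -1.88 on the same scale. MAT1A, the liver form of methionine adenosyltransferase, rose from 5 and 9 counts to 58 and 56 (3.01, SE 0.37, adjusted p = 2.24e-08).

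**Figure D5:**
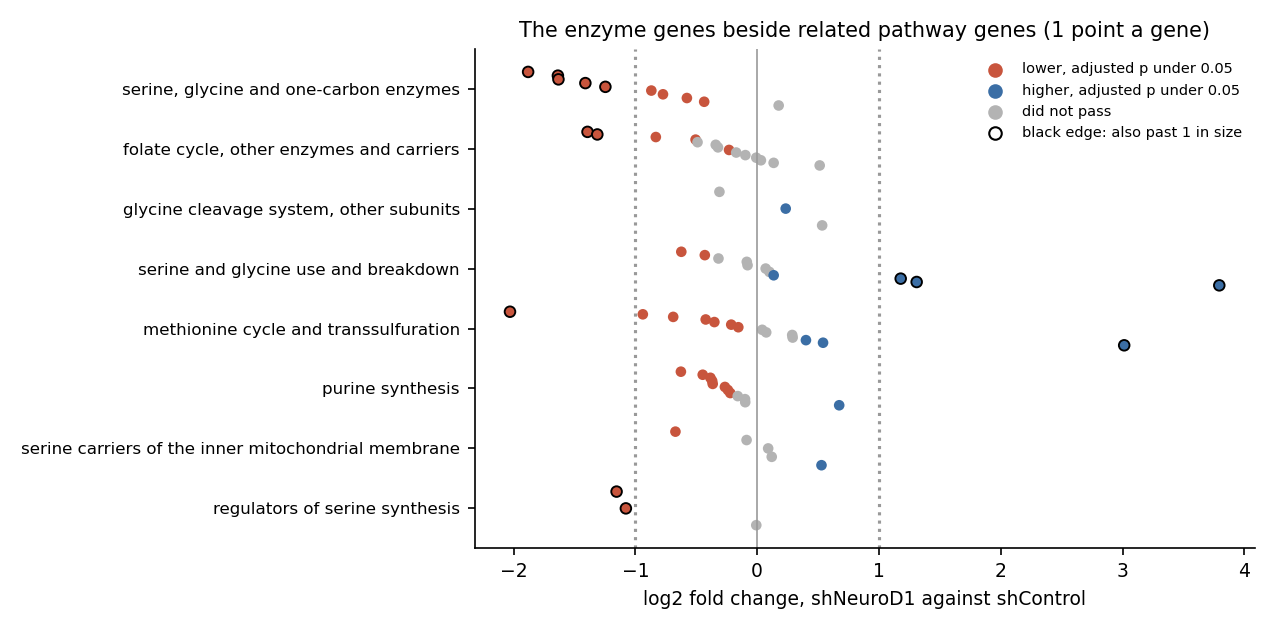
Log2 fold change in shNeuroD1 against shControl of the 10 enzyme genes (top row) and of the tested genes of 7 related lists, 1 point a gene, coloured where the adjusted p is under 0.05 and edged in black where the change is also beyond 1 in size. Members lie mostly left of the related genes, which have a median of -0.15 without the regulators, and the points for the members are a description because their set was proposed from this contrast.

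Regulators known to act on serine synthesis were measured as transcripts. ATF4 had 7576 and 7781 counts in shControl against 3621 and 3618 in shNeuroD1 (log2 fold change -1.08, SE 0.042, adjusted p = 3.24e-20). In FPKM its difference had the opposite sign and did not pass (0.37, adjusted p = 0.468, with limma on log2(FPKM + 1)), so its direction depends on the measure. NFE2L2 had 2436 and 2515 counts against 1094 and 1119 (log2 fold change -1.15, SE 0.051, adjusted p = 8.78e-19). MYCN had 29840 and 30880 counts against 29956 and 30146 (-0.01, SE 0.037, adjusted p = 0.886), and its sign changed with the scaling. MYC, with 7 and 1 counts in shControl against 2 and 2 in shNeuroD1, was too scarce to be tested. Whether any of these bears on the 10 enzyme genes was not tested.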

How the data were processed

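RNAseq counts of 2 shControl and 2 shNeuroD1 libraries were used. The authors deposited raw read counts for 60612 genes, and per the submitters' processing notes cutadapt 1.9.1, HISAT2 2.0.1, HTSeq 0.6.1, DESeq2 and build hg38 were used. The use of strand was not stated. The authors also deposited FPKM values of transcript starts and ends in assembled transcripts, with starts summed here per gene; the tool was not given in the sources used here. Symbols came from a gene name table and coordinates from GENCODE 29 on GRCh38.

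Counts were fitted in edgeR 4.0.16 under R 4.3.3 (filterByExpr, minimum count 10, TMM, glmQLFit and glmQLFTest, two-sided, Benjamini-Hochberg over 17537 genes) with calls made where the adjusted p was under 0.05 and the log2 change exceeded 1 in size, a pipeline tested on simulated data. The SE is the log2 fold change divided by the square root of F. DESeq2 1.42.0 and limma 3.58.1 on log2(FPKM + 1) or log2(FPKM + 0.1), over genes whose mean reached 1 FPKM, were alternatives, so fold changes from FPKM are on that scale. Other alternatives changed the scaling and filter, blocked on replicate number or left out a library.

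The 10 genes, the related lists and the tests were chosen with earlier results of these data known. Named were all members, NEUROD1, the 4 regulators, the related genes past both thresholds (or up to 3 past the adjusted p where fewer than 2 were), the 5 genes nearest to PHGDH, and pseudogenes by symbol. Total counts of 14665210 to 16482463 per library set the precision. MTHFD2L, AMT, GCSH, SFXN1 and SPTLC1 were outside the rule and were named after their values were seen. A gene of the related lists that the rule named is not reported here.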

Additional observations from a re-analysis of the deposited data

How the results depend on the processing

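The 5 members lower by both thresholds numbered 5 with each library left out in turn (5 to 5), with 0 higher (0 to 0), and the replicate block gave 5 lower members, 899 lower and 1511 higher genes. The deviations of libraries that share a number were hardly correlated (0.016), so the numbers were not taken as pairs. With each library left out, 750 to 901 genes were lower and 1054 to 1337 higher, the median of the members was -1.07 to -1.06, and related genes numbered 3 to 4 lower and 1 to 3 higher. At the adjusted p alone 4939 genes were lower and 4698 higher, with 9 members lower, and 23 related genes lower and 10 higher. DESeq2 gave 998 higher genes and 2 higher related genes, as did no filter on low counts (2). On FPKM with added 1 and 0.1, 201 and 206 genes were lower, 187 and 174 higher, and 0 related genes higher, with 5 and 4 lower members. Scaling by library size alone moved the median of all genes from 0.0084 to 0.12 and that of the members to -0.95, and the FPKM fits gave -0.88 and -0.93 for the members.

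Signs turned for SHMT1 in the FPKM fits (0.094 and 0.12), for ATF4 there (0.37 and 0.38), and for MYCN by library size alone (0.11), under the filter on mean CPM (0.0059), in the FPKM fits (0.13 and 0.13) and without shControl replicate 1 (0.011, against -0.046 without shControl replicate 2), and the cause was not tested. Transcript ends gave other shControl FPKM levels than starts for PHGDH (0.295), MTHFD1 (0.220), MTHFD1L (0.022), GLDC (1.83), SHMT2 (101.7) and MTHFD2 (128.2), and the cause was not tested. PHGDH had a log2 fold change of -1.10 on log2(FPKM + 1) and GLDC one of 0.76. In the FPKM fits DLD, IMPDH1, IMPDH2, PAICS and SFXN3 kept their direction but missed the threshold (adjusted p of 0.065 to 0.138 with limma). Among scarce or variable genes the value moved over 1.5 times with 1 library left out. Without shControl replicate 1 and without shControl replicate 2, PIPOX had 2.32 and 0.67, AGXT2 had 5.31 and 3.02 and SARDH had 0.88 and 1.55. The AGXT2 call was lost without shControl replicate 2, that of PIPOX without shControl replicate 2 or either shNeuroD1 library, and that of SARDH whichever library was left out. GLDC had 0.08 without shControl replicate 2, and SFXN5 had -1.002 and -0.40 without shNeuroD1 replicates 1 and 2.

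With 2 libraries a group, of 1 line, no value here can be carried to other lines. Counts per gene limited AMT, AGXT2, PIPOX, SARDH, MAT1A and MYC. The rank by level per length, set beside CPM per exonic kilobase as an alternative added after seeing the data, held at rank 4 for PHGDH and moved by up to 3 places in the other members.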
